A study of Mus musculus with 42 samples.

Results

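The genes of bile acid synthesis and its feedback by the bile acid receptor FXR were described in livers of mice on 2 diets, as 8 genes of the 54532 in the count table, chosen by name: Cyp7a1, Cyp8b1, Cyp27a1, Cyp7b1, Akr1d1, Slc27a5, Baat and Nr0b2. Female C57BL/6NHsd mice, C57BL/6 in the sample records, were fed from 3 weeks of age, for 3 weeks, 1 of 2 purified diets with soybean oil as the fat, either AIN93G, the standard diet, where fat gave 16% of the energy, or a modified high-fat version (HFD), where it gave 45%. Mice were thus 6 weeks old when livers were collected over 48 h at 7 time points 4 h apart from ZT 0 to ZT 24, where ZT is the time in hours after lights on and ZT 12 is lights off, and they had free access to food until then. The day on which each mouse was taken is not given in the sources used here, and mice of 1 time point may come from different days. Poly(A) RNA of 3 livers per diet and time point was sequenced, giving 42 libraries, and the values below are from the 32 libraries with over 10000 CPM of Alb, the albumin gene that marks hepatocytes. CPM is the count of a gene per 1000000 counts of its library after TMM scaling, which adjusts the library total for differences in composition.

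Bile acids are made from cholesterol in hepatocytes. In the classical pathway Cyp7a1 takes the first and rate-limiting step and Cyp8b1 adds the hydroxyl group that makes cholic acid, while the alternative pathway starts with the sterol 27-hydroxylase Cyp27a1 and goes on through the oxysterol 7-alpha-hydroxylase Cyp7b1. Akr1d1 reduces the sterol ring, Slc27a5 activates the acid with coenzyme A, and Baat joins it to taurine or glycine. Bile acids activate FXR (Nr1h4), which induces Nr0b2, also named SHP, a receptor without a DNA-binding domain that represses Cyp7a1 and Cyp8b1. A rise of hepatic Cyp7a1 mRNA toward the dark phase, when mice eat, is a known feature of mouse liver.

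RefSeq (GRCm38.p6) gave a promoter for 4 of the 8 genes, namely Cyp8b1, Cyp27a1, Akr1d1 and Nr0b2. The 250 bases before the start of Cyp8b1 and Nr0b2 are shown, because Cyp8b1 followed a daily cosine and Nr0b2 had the largest diet difference at a single time point. Both are on the strand of the gene, 5′ to 3′, with motif matches in capitals. The Cyp8b1 window is chr9:121916306-121916555 on the minus strand and the Nr0b2 window is chr4:133553126-133553375 on the plus strand.
Cyp8b1: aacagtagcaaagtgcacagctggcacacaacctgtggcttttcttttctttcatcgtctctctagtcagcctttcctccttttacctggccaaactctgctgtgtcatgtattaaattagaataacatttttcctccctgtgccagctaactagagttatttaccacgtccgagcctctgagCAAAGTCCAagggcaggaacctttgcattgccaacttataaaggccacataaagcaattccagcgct
Nr0b2: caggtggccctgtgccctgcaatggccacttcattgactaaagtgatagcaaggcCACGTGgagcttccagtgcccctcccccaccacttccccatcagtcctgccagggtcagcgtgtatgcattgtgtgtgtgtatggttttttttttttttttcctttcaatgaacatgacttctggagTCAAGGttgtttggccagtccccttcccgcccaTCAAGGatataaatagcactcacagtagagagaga
In Cyp8b1 the capitals mark CAAAGTCCA, the motif of the liver receptor HNF4, from 67 to 59 bases before the start. In Nr0b2 they mark the E-box CACGTG, the motif of the clock factors CLOCK and BMAL1, from 195 to 190 bases before the start, and TCAAGG, the core of the motif of LRH-1 (Nr5a2), from 68 to 63 and from 35 to 30 bases before it. Windows of Cyp27a1 and Akr1d1 each held 1 match to the D-box TTATGNAA, and Akr1d1 held 1 match to TCAAGG on the other strand. All 4 motifs were searched on both strands, and no 2 matches overlapped. Over 32851 promoter windows of the same length, CAAAGTCCA was found in 0.384%, TCAAGG in 12.5%, TTATGNAA in 3.07% and CACGTG in 6.02%. These matches are descriptions of the letters and were not tested as binding sites.

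Some libraries stood apart from their labels, and the comparisons were built around them. Of the 42 libraries, 10 held 18.7 to 81.0 CPM of Alb before TMM scaling, against 66434 to 111995 CPM in the other 32. They were the 3 AIN93G libraries of ZT 16, the 3 of ZT 20, and 2 of 3 at ZT 24 on each diet. These 10 held 14838 to 25611 CPM in sum of 10 adipocyte markers, against 23.7 to 85.6 CPM in the libraries compared, and 567 to 1402 CPM of 14 hepatocyte markers, against 121494 to 178334 CPM. Groups with 3 liver libraries were therefore AIN93G from ZT 0 to ZT 12 and the HFD from ZT 0 to ZT 20, in all 30 libraries with totals of 14592481 to 19815356 counts. Adipoq, a defining adipocyte gene, was at or under 5.00 CPM in each of the 30.

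The clock gene Arntl, whose protein is BMAL1, showed that libraries of ZT 12 were unlike each other. It was at 38.8 to 45.7 CPM in the 6 libraries of ZT 0 and at 1.22 to 2.47 CPM in the 6 of ZT 8. At ZT 12 it was at 1.14, 42.4 and 46.3 CPM in AIN93G replicates 1, 2 and 3 and at 1.76, 0.940 and 38.4 CPM in HFD replicates 1, 2 and 3. Sample records call AIN93G replicate 2 and HFD replicate 3 of this time point light phase and the other 4 dark phase. The single liver libraries of ZT 24 had 0.779 CPM on AIN93G and 1.15 CPM on the HFD, far under those of ZT 0, and were kept out of the fits. Arntl in 3 of the 6 libraries of ZT 12 was thus within or beside the range of ZT 0, and in the 2 of ZT 24 under that of ZT 8. The first number in the sample titles, whose meaning the labels do not give, ran on AIN93G from 13 to 24 at ZT 0 to ZT 8 and from 1 to 11 at ZT 16 to ZT 24, and on the HFD from 37 to 48 and from 25 to 36. At ZT 12 it was 14, 16 and 39 in the 3 libraries with high Arntl and 1, 25 and 27 in the other 3. Ranges of ZT 0 to ZT 8 and of ZT 16 to ZT 24 did not overlap on either diet. In time tests and cosines on the HFD, a difference between these early and late time points thus cannot be told apart from one that goes with this number. Whether the time labels of ZT 12 and ZT 24, or the tissue label of the 10 libraries with little Alb, are right was not tested, and values at ZT 12, amplitudes and peaks hold only as far as these labels do.

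**Figure D1:**
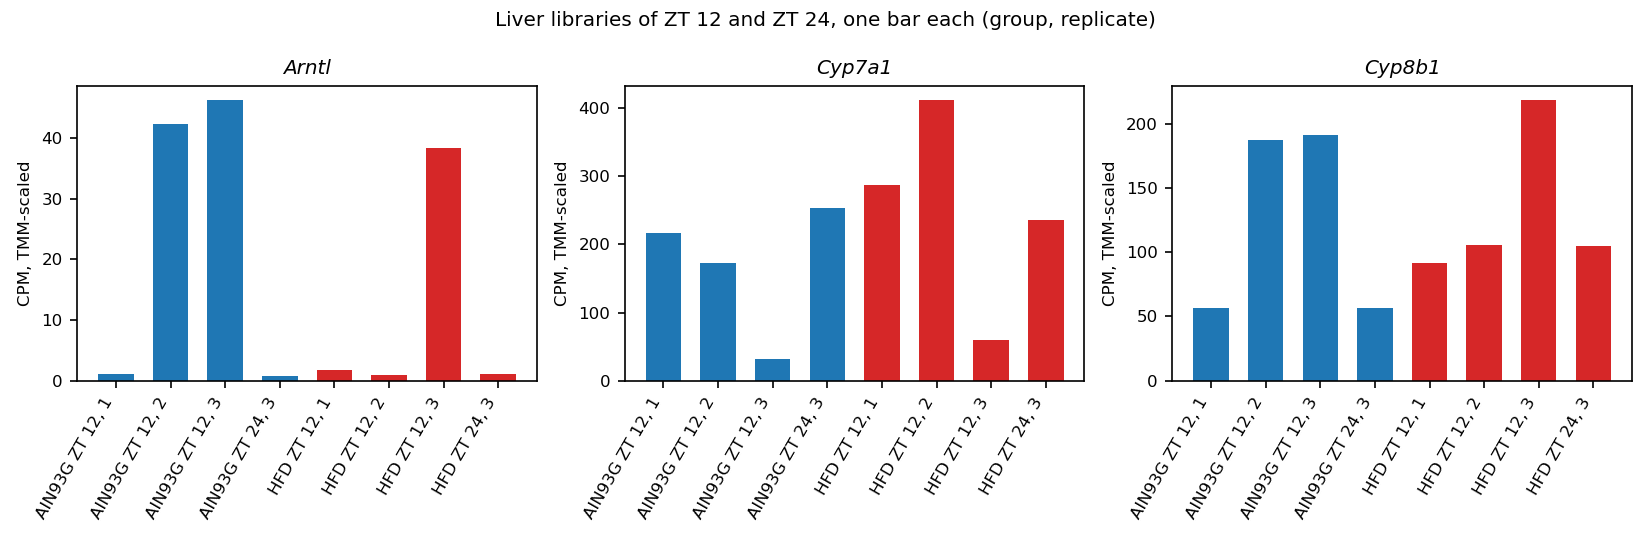
Level in CPM of Arntl, Cyp7a1 and Cyp8b1 in each liver library of ZT 12 and ZT 24, as bars from 0, with AIN93G in blue and the HFD in red and the replicate after each group. The 3 libraries with Arntl at 38.4 to 46.3 CPM are those with Cyp8b1 at 187 to 218 CPM, and the other 5 have Cyp8b1 at 56.3 to 106 CPM.

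All 8 genes passed the filter on low counts, a mean of 25 or more, which left 12000 genes. The lowest count of any of the 8 in the 30 libraries was 133, for Nr0b2. Per length, Slc27a5 was the most abundant with 351 ± 56.3 CPM per kb (SD, n = 30), ahead of Cyp27a1 with 183 ± 34.8 and Baat with 123 ± 19.5. Slc27a5 was above Cyp27a1 in 30 of 30 libraries, Cyp27a1 above Baat in 29 and Baat above Cyp8b1 in 25. Cyp8b1 with 89.5 ± 40.2 CPM per kb and Akr1d1 with 88.6 ± 20.9 were not ordered, since Cyp8b1 was the higher in 15 of 30 libraries. Akr1d1 was above Cyp7a1 in 29. Cyp7a1 with 30.8 ± 26.9 CPM per kb and Nr0b2 with 27.5 ± 12.9 were not ordered either, Cyp7a1 being the higher in 12 libraries, and Cyp7b1 was lowest with 15.5 ± 7.68, under Nr0b2 in 23.

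**Figure D2:**
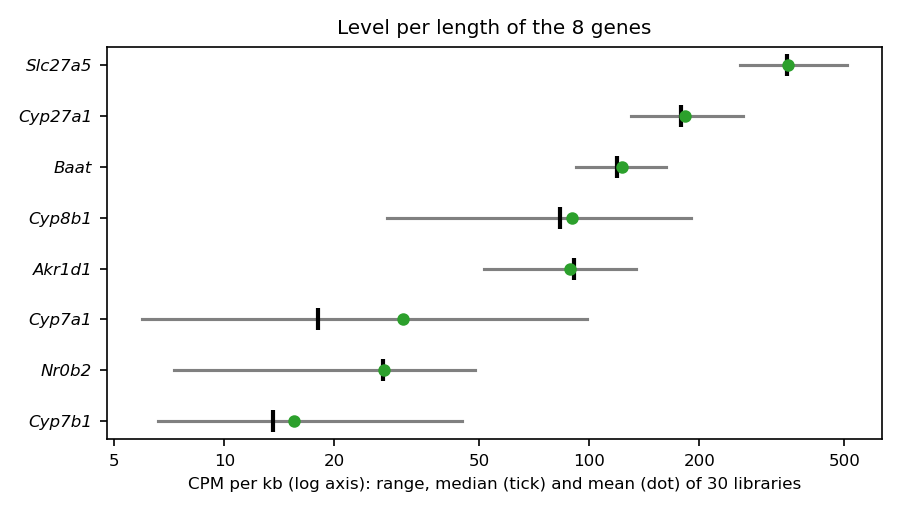
Level per length (CPM per kb, log axis) of the 8 genes over 30 liver libraries, with a line from the lowest to the highest library, a tick at the median and a dot at the mean. Cyp7a1 has the widest line, from 5.95 to 98.8 CPM per kb, with its median of 18.1 well under its mean.

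The genes fell into a variable and a steady group. Highest over lowest CPM in the 30 libraries was 16.6 for Cyp7a1, 6.84 for Cyp8b1, 6.81 for Cyp7b1 and 6.68 for Nr0b2. It was 2.61 for Akr1d1, 2.02 for Cyp27a1, 1.96 for Slc27a5 and 1.77 for Baat. Much of this was spread between mice of the same group, with an SD within groups on the log2 scale of 1.18 for Cyp7a1 and 0.69 for Nr0b2, against 0.19 for Baat.

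**Figure D3:**
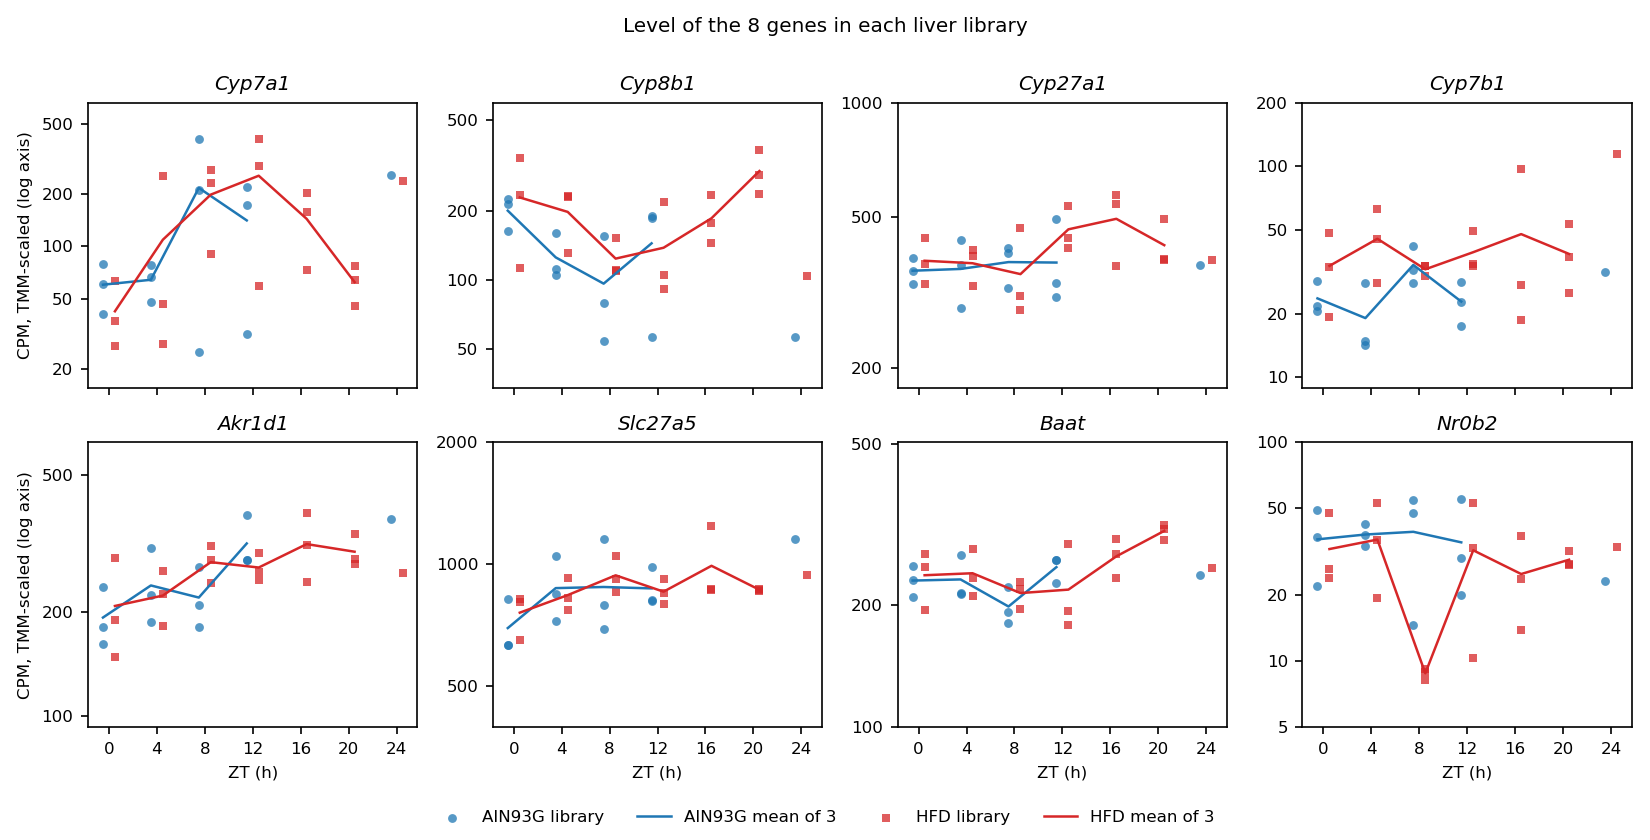
Level (CPM, log axis) of each of the 8 genes against ZT in hours, one point per liver library, AIN93G as blue circles and the HFD as red squares, with lines through the means of groups of 3. Cyp7a1 is highest around ZT 8 and ZT 12, Cyp8b1 on the HFD is lowest around ZT 8 and highest at ZT 20, and the 3 HFD points of Nr0b2 at ZT 8 lie under all others.

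Diet was the first comparison, as the mean of HFD groups minus the mean of AIN93G groups over ZT 0, 4, 8 and 12. None of the 8 genes passed an adjusted p of 0.05 in the quasi-likelihood F-test of edgeR with Benjamini-Hochberg adjustment over all 12000 genes, of which 12 were called, or 0.1%. Of the 8, 2 had an unadjusted p under 0.05, as did 1020 of all genes, and DESeq2 called 0 of the 8. The median log2 fold change of the 8 was 0.068, with 7 of 8 above 0, beside a median of 0.0026 over all genes. Without ZT 12 there were 64 calls, none of them among the 8. The genes with the larger differences were Cyp7b1, 0.63 ± 0.22 higher on the log2 scale on the HFD (SE, adjusted p = 0.348), and Nr0b2, with a log2 fold change of -0.61 ± 0.25 (adjusted p = 0.481). Without ZT 12 these were 0.57 (adjusted p = 0.363) and -0.79 (adjusted p = 0.148), and those of the other 6 were 0.051 for Cyp7a1, 0.41 for Cyp8b1, 0.016 for Cyp27a1, 0.12 for Akr1d1, 0.060 for Slc27a5 and 0.074 for Baat.

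Diet was also compared at each time point and in its interaction with time. Calls over all genes were 0% at ZT 0, ZT 4 and ZT 12, 0.0167% at ZT 8 and 0% for the interaction, and none of the 8 genes was called in any of these by edgeR in the fit of 12000 genes. Without the filter on low counts edgeR called Cyp7b1 at ZT 4, Nr0b2 at ZT 8 and Nr0b2 in the interaction (adjusted p = 0.000617). With an unadjusted p under 0.05 there were 502 and 303 genes at ZT 0 and ZT 4, 1410 and 873 at ZT 8 and ZT 12, and 722 for the interaction. Among the 8 these were Cyp7b1 at ZT 4, Nr0b2 at ZT 8 and Nr0b2 in the interaction. DESeq2 called 13, 0, 30 and 3 genes at ZT 0, 4, 8 and 12 and 5 for the interaction, and of the 8 genes Nr0b2 at ZT 8. Of the 32 pairs of a member and a time point, 3 had diets that did not overlap, Cyp7b1 at ZT 4 and ZT 12 and Nr0b2 at ZT 8, a share near the 11% over all genes and these time points.

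**Figure D4:**
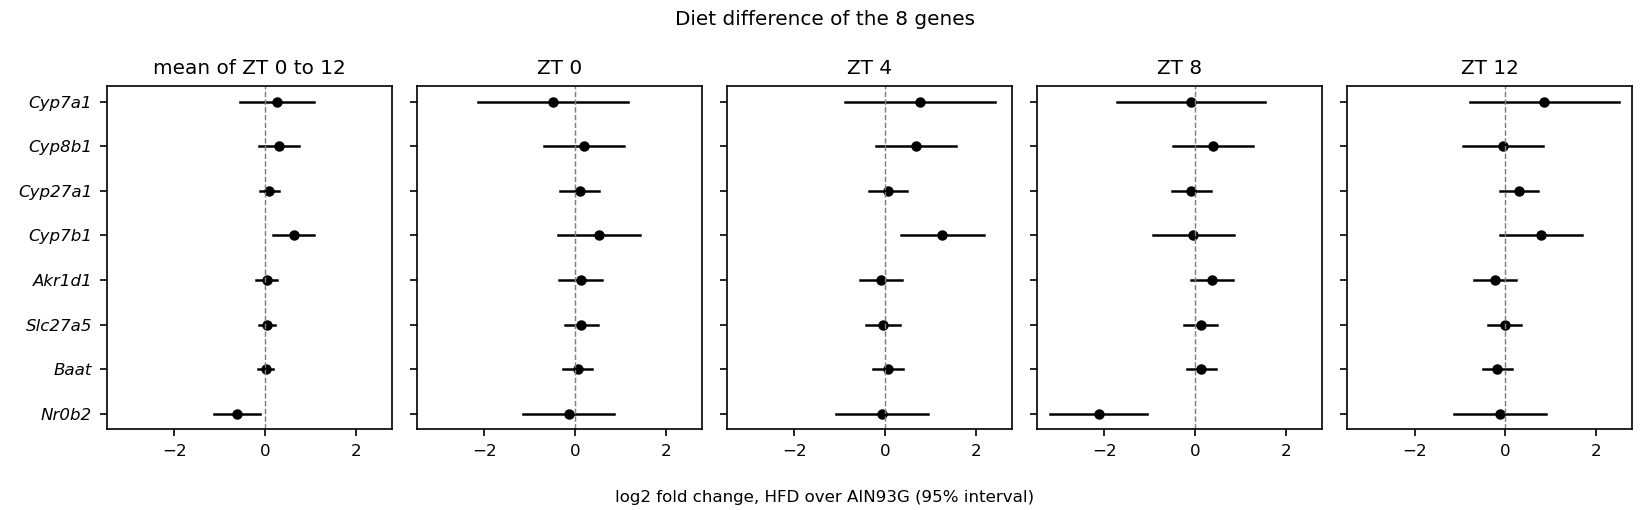
Log2 fold change of the HFD over AIN93G for the 8 genes, as the mean over ZT 0 to ZT 12 and at each time point, with 95% intervals of the fit of 30 libraries and 12000 genes; the dashed line is no difference and none of the 8 passed the threshold in that fit. Nr0b2 at ZT 8 lies farthest from 0, at -2.13, and intervals of Cyp7a1 are the widest.

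Time was the other comparison. Over ZT 0 to ZT 12 on AIN93G, 0.767% of all genes were called and none of the 8, and over ZT 0 to ZT 20 on the HFD 5.37% were called and none of the 8. Unadjusted p-values under 0.05 were found for 1 of the 8 (Akr1d1) of 1289 genes on AIN93G and for 3 (Cyp7a1, Nr0b2 and Baat) of 3027 on the HFD, and DESeq2 called 275 and 1786 genes, with 0 of the 8 in each. Without the filter on low counts edgeR called Cyp7a1 and Cyp8b1 on AIN93G and Cyp7a1, Cyp8b1 and Nr0b2 on the HFD. A cosine of 24 h, fitted to the 18 HFD libraries, is a test with fewer terms, and it called 8.52% of all genes and 2 of the 8, Cyp7a1 and Cyp8b1. No such fit was made on AIN93G, whose liver libraries ended at ZT 12.

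Steps from each time point to the next were tested too, and none of the 8 genes was called in any of these 9 steps by edgeR in the fit of 12000 genes. Without the filter on low counts it called Cyp7a1 on AIN93G from ZT 4 to ZT 8 (adjusted p = 0.00542) and Nr0b2 on the HFD from ZT 4 to ZT 8 (3.10e-06) and from ZT 8 to ZT 12 (5.69e-06). On AIN93G the share of all genes called was 0.00833% from ZT 0 to ZT 4, 0.0333% from ZT 4 to ZT 8 and 0.075% from ZT 8 to ZT 12. On the HFD it was 0.0167% from ZT 4 to ZT 8, 2.45% from ZT 8 to ZT 12 and 0.025% from ZT 20 to ZT 0, and 0% from ZT 0 to ZT 4, from ZT 12 to ZT 16 and from ZT 16 to ZT 20. Among the 0% steps, unadjusted p-values under 0.05 numbered 600, 1183 and 816, with none of the 8 among them, and DESeq2 called 11, 50 and 0 genes.

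Cyp7a1 (ENSMUSG00000028240, chr4:6265612-6275633, minus strand, mm10) encodes cholesterol 7-alpha-hydroxylase. On AIN93G it was at 60.8, 78.9 and 41.1 CPM at ZT 0, at 47.8, 66.7 and 78.4 CPM at ZT 4, at 209, 412 and 24.8 CPM at ZT 8, and at 218, 172 and 31.5 CPM at ZT 12. On the HFD it was at 26.8, 63.4 and 37.3 CPM at ZT 0, at 252, 27.4 and 47.0 CPM at ZT 4, at 90.0, 229 and 273 CPM at ZT 8, and at 287, 412 and 59.0 CPM at ZT 12. Later on the HFD it was at 156, 200 and 73.6 CPM at ZT 16 and at 77.1, 64.5 and 45.5 CPM at ZT 20. High values thus came at ZT 8 to ZT 16, but AIN93G at ZT 8 and ZT 12 and the HFD at ZT 4 and ZT 12 each held a library far from the other two, and the diets overlapped at every time point. The ranges at ZT 8 were 24.8 to 412 CPM on AIN93G and 90.0 to 273 CPM on the HFD.

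On the HFD, Cyp7a1 followed the 24 h cosine with an amplitude of 1.18 ± 0.32 on the log2 scale (SE, n = 18, edgeR adjusted p = 0.0236). Its fitted peak was at ZT 11.4 ± 1.04 h and its peak was 5.13-fold its trough. Without ZT 12 the amplitude was 1.29 (adjusted p = 0.0455). The call was lost when HFD ZT 0 replicate 1 (adjusted p = 0.0501), HFD ZT 0 replicate 3 (0.05002) or HFD ZT 12 replicate 2 (0.0725) was left out, with amplitudes of 1.09, 1.15 and 1.05. The ZT 24 libraries, at 254 CPM on AIN93G and 236 CPM on the HFD, were above every library of ZT 0, and with the HFD one in the fit the amplitude was 0.95 and not called (adjusted p = 0.202).

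The diet difference of Cyp7a1 over ZT 0 to ZT 12 was 0.26 ± 0.40 on the log2 scale, with a 95% interval of -0.56 to 1.08, and its sign turned to -0.14 without HFD ZT 4 replicate 1. On AIN93G the step from ZT 4 to ZT 8 was 1.74 ± 0.82 (adjusted p = 0.630), and it was 0.86 without AIN93G ZT 8 replicate 2. At single time points the intervals were wider, as at ZT 8, where the diet difference was -0.10 with an interval of -1.73 to 1.53.

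Cyp8b1 (ENSMUSG00000050445, chr9:121914356-121916305, minus strand) encodes sterol 12-alpha-hydroxylase. On AIN93G it was at 214, 226 and 163 CPM at ZT 0, at 105, 112 and 160 CPM at ZT 4, at 79.9, 54.3 and 156 CPM at ZT 8, and at 56.3, 187 and 191 CPM at ZT 12. On the HFD it was at 235, 341 and 113 CPM at ZT 0, at 231, 131 and 234 CPM at ZT 4, at 109, 153 and 111 CPM at ZT 8, and at 91.5, 106 and 218 CPM at ZT 12. At ZT 16 it was at 236, 145 and 178 CPM and at ZT 20 at 289, 238 and 371 CPM on the HFD. The 3 HFD libraries of ZT 20 were above all HFD libraries of ZT 8 and ZT 12, as for 2.87% of all genes. On AIN93G the 3 libraries of ZT 0 were above those of ZT 4 and ZT 8, as for 3.62%. Both shares are for these groups and this direction alone. The diets overlapped at each time point.

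Cyp8b1 followed the cosine on the HFD with an amplitude of 0.57 ± 0.16 on the log2 scale (SE, n = 18, edgeR adjusted p = 0.0366), a peak at ZT 21.5 ± 1.10 h and a peak 2.20-fold its trough. The fitted trough was at ZT 9.53, and the trough of Cyp7a1 was at ZT 23.4. Without ZT 12 the amplitude was 0.55 and just missed the threshold (adjusted p = 0.0557), and with the HFD library of ZT 24, at 105 CPM, it was 0.48 (adjusted p = 0.140). DESeq2 called the cosine of both genes, with an adjusted p of 0.00583 for Cyp7a1 and 0.00347 for Cyp8b1.

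The Cyp8b1 call rested on many single libraries. It was lost in 10 of the 18 fits that left out 1 HFD library, with adjusted p = 0.0779 without ZT 0 replicate 2, and 0.0715, 0.0536 and 0.0601 without ZT 8 replicates 1, 2 and 3. Without ZT 12 replicates 1 and 2 the adjusted p was 0.0763 and 0.0787, and without ZT 16 replicate 3 it was 0.0521. Without ZT 20 replicates 1, 2 and 3 it was 0.0683, 0.0515 and 0.0848. The amplitude stayed between 0.51 and 0.70 in all 18.

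**Figure D5:**
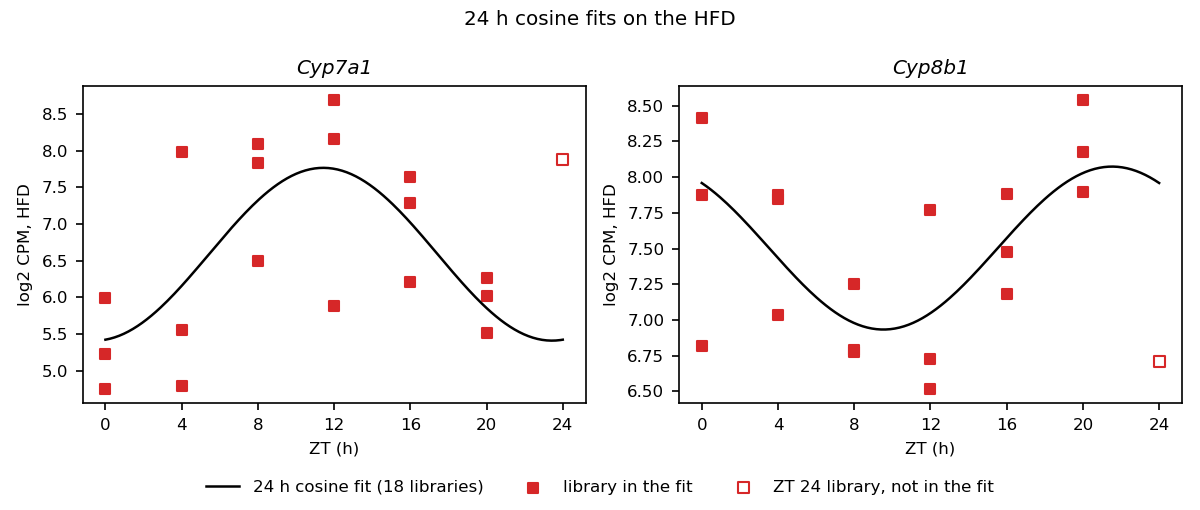
Log2 CPM of Cyp7a1 and Cyp8b1 against ZT in hours in the HFD libraries, filled squares for the 18 libraries of the fit, open squares for the ZT 24 library outside it, and the fitted 24 h cosine as a line. Cyp7a1 has its fitted peak at ZT 11.4 and Cyp8b1 at ZT 21.5, and both open squares lie away from the curve.

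At ZT 12 the level of both genes can be read beside Arntl in the same libraries. AIN93G replicate 1, with Arntl at 1.14 CPM, had Cyp7a1 at 218 and Cyp8b1 at 56.3 CPM. AIN93G replicates 2 and 3, with Arntl at 42.4 and 46.3 CPM, had Cyp7a1 at 172 and 31.5 and Cyp8b1 at 187 and 191 CPM. On the HFD, replicates 1 and 2, with Arntl at 1.76 and 0.940 CPM, had Cyp7a1 at 287 and 412 and Cyp8b1 at 91.5 and 106 CPM, while replicate 3, with Arntl at 38.4 CPM, had 59.0 and 218 CPM. The part of the unlike ZT 12 libraries in the spread of both genes was not tested.

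The diet difference of Cyp8b1 over ZT 0 to ZT 12 was 0.30 ± 0.21 on the log2 scale, with a 95% interval of -0.14 to 0.74 (adjusted p = 0.739). At ZT 4 it was 0.67 ± 0.43, and HFD libraries of 231, 131 and 234 CPM stood beside AIN93G libraries of 105, 112 and 160 CPM.

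Cyp27a1 (ENSMUSG00000026170, chr1:74713574-74737892, plus strand) encodes the mitochondrial sterol 27-hydroxylase of the alternative pathway. Over the 30 libraries it was lowest at 283, with a median of 388 and a highest value of 571 CPM. On the HFD the group means ran from 353 ± 99.7 CPM at ZT 8 to 494 ± 107 CPM at ZT 16 (SD, n = 3), and 1 library of ZT 16, at 371 CPM, lay among those of ZT 8. Its cosine on the HFD had an amplitude of 0.22 ± 0.083 and was not called (adjusted p = 0.172). The diet difference was 0.091 ± 0.10, with a 95% interval of -0.12 to 0.30.

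Cyp7b1 (ENSMUSG00000039519, chr3:18071950-18243338, minus strand) encodes the oxysterol 7-alpha-hydroxylase, and no diet difference of it passed the adjusted threshold in the fit of 12000 genes. Its HFD libraries were above those of AIN93G without overlap at ZT 4, as were those of 3.88% of all genes. The same held at ZT 12, as for 5.08%. Both held for 0.183%, a share for these time points and this direction alone, which leaves out other pairs of time points. At ZT 4 it was at 14.9, 14.2 and 28.02 CPM on AIN93G and at 28.1, 45.3 and 62.5 CPM on the HFD. At ZT 12 it was at 28.3, 22.7 and 17.5 CPM on AIN93G and at 49.3, 34.4 and 33.6 CPM on the HFD. At ZT 4 the highest AIN93G library and the lowest HFD library were nearly equal. At ZT 0 and ZT 8 the diets overlapped, with 21.7, 28.5 and 20.7 against 19.4, 48.3 and 33.4 CPM and with 28.1, 32.3 and 41.8 against 30.3, 33.5 and 33.6 CPM.

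The log2 fold change of Cyp7b1 was 1.26 ± 0.44 at ZT 4 (edgeR adjusted p = 1.00) and 0.78 ± 0.44 at ZT 12 (adjusted p = 0.683). Over the 4 time points it was 0.63 ± 0.22, a 1.55-fold higher level on the HFD, with a 95% interval of 0.18 to 1.08 and an unadjusted p of 0.00796 that did not hold after adjustment (0.348). Leaving out single libraries moved it between 0.54 and 0.73. Without the filter on low counts, where the same fit held 232 calls instead of 12, Cyp7b1 was called for the diet term (adjusted p = 0.00190) and at ZT 4 (adjusted p = 0.0184). On the HFD alone its cosine amplitude was 0.033 ± 0.21, and 1 library of ZT 16 stood at 97.0 CPM beside 18.6 and 27.4 CPM. The single liver libraries of ZT 24, outside the fit, were at 31.7 CPM on AIN93G and at 114 CPM on the HFD. The latter was above every library of the fit.

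Akr1d1 (ENSMUSG00000038641, chr6:37530173-37568815, plus strand), which encodes the 5-beta-reductase, was at 149 to 388 CPM with a median of 263 CPM. On AIN93G it was at 181, 210 and 270 CPM at ZT 8 and at 382, 283 and 284 CPM at ZT 12, so that all 3 later libraries were the higher, as for 4.81% of all genes, with a log2 fold change of 0.51 ± 0.23 (adjusted p = 0.535). On the HFD it was at 337, 285 and 276 CPM at ZT 20 and at 287, 190 and 149 CPM at ZT 0, with a log2 fold change of -0.52 ± 0.23 from the former to the latter (adjusted p = 0.771). Its cosine on the HFD had an amplitude of 0.26 ± 0.097 (adjusted p = 0.161), and its diet difference was 0.041 ± 0.11, with a 95% interval of -0.19 to 0.27.

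Slc27a5 (ENSMUSG00000030382, chr7:12988346-12998192, minus strand), the bile acyl-CoA synthetase, was at 632 to 1237 CPM with a median of 846 CPM. The diet difference was 0.045 ± 0.089 on the log2 scale, with a 95% interval of -0.14 to 0.23. Its HFD group means spanned 0.37 on the log2 scale from ZT 0 to ZT 16, a range at percentile 28.1 of all genes. At ZT 0, its lowest group on each diet, it was at 818, 632 and 632 CPM on AIN93G and 817, 806 and 649 CPM on the HFD.

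Baat (ENSMUSG00000039653, chr4:49489422-49506557, minus strand), the conjugating enzyme, was at 179 to 315 CPM with a median of 232 CPM, the smallest highest-over-lowest ratio of the 8. On the HFD it was at 290, 315 and 309 CPM at ZT 20 and at 248, 268 and 195 CPM at ZT 0, without overlap, as for 6.65% of all genes in this direction, and with a log2 fold change of -0.36 ± 0.16 (adjusted p = 0.771). Its diet difference was 0.016 ± 0.078, with a 95% interval of -0.15 to 0.18, the narrowest of the 8. The time test on the HFD gave an adjusted p of 0.158, and 0.0241 when ZT 12 replicate 3 was left out.

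Nr0b2 (ENSMUSG00000037583, chr4:133553376-133556536, plus strand), the repressor SHP, was lowest in HFD livers at ZT 8. There it was at 8.22, 8.95 and 9.24 CPM, against 54.5, 47.7 and 14.6 CPM on AIN93G. The 3 HFD libraries lay under every other of the 30 libraries, as they did for 0.308% of all genes. This share is for this group and direction alone and leaves out genes with another group lowest or highest. The next library was HFD ZT 12 replicate 2 at 10.3 CPM. AIN93G replicate 3 of ZT 8 lay closer to the 3 HFD libraries than to its own group. Of the other HFD groups Nr0b2 was at 47.3, 23.9 and 26.3 CPM at ZT 0, at 19.3, 52.6 and 35.7 CPM at ZT 4, and at 33.01, 10.3 and 52.9 CPM at ZT 12. In the dark phase it was at 13.9, 23.7 and 37.4 CPM at ZT 16 and at 27.6, 27.5 and 31.97 CPM at ZT 20. On AIN93G it was at 37.0, 22.1 and 48.9 CPM at ZT 0, at 42.5, 37.7 and 33.4 CPM at ZT 4 and at 54.9, 20.0 and 29.6 CPM at ZT 12. The diets overlapped at each time point other than ZT 8, where 6.52% of all genes were lower on the HFD without overlap.

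The Nr0b2 difference at ZT 8 was -2.13 ± 0.52 on the log2 scale, or 0.229-fold on the HFD, with a 95% interval of -3.20 to -1.06 (edgeR, unadjusted p = 0.000392, adjusted p = 0.223). DESeq2 gave -2.14 and passed the threshold (adjusted p = 0.0333), and edgeR without the filter on low counts gave -2.15 with an adjusted p of 2.95e-07. The interaction of diet and time was at an adjusted p of 0.802 for Nr0b2, with an unadjusted p of 0.0192. Leaving out single libraries kept the difference between -2.52 and -1.80, uncalled each time. The diet term of Nr0b2, too, was called without the filter (-0.62, adjusted p = 0.00503).

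Within the HFD, Nr0b2 differed between ZT 4 and ZT 8 by -2.01 ± 0.52 (edgeR adjusted p = 0.184; DESeq2 adjusted p = 0.0453, among 52 calls) and between ZT 8 and ZT 12 by 1.84 ± 0.52 (edgeR adjusted p = 0.0535; DESeq2 adjusted p = 0.0195, among 812 calls). The latter passed when AIN93G ZT 8 replicate 3 (adjusted p = 0.0408), AIN93G ZT 12 replicate 1 (0.0450) or HFD ZT 12 replicate 2 (0.0178) was left out. Without ZT 12 the time test on the HFD called Nr0b2 (adjusted p = 0.0314), against an adjusted p of 0.116 with it. No 24 h cosine was called for Nr0b2 (adjusted p = 0.616). In the same HFD livers of ZT 8 Cyp7a1 was at 90.0, 229 and 273 CPM and Cyp8b1 at 109, 153 and 111 CPM.

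Markers of other cells were compared in the same libraries. In AIN93G libraries, HFD libraries of ZT 0 to ZT 12 and HFD libraries of ZT 16 and ZT 20, summed levels of 10 cholangiocyte markers were 132 to 188, 124 to 166 and 129 to 148 CPM. Those of 8 Kupffer cell markers were 364 to 525, 343 to 983 and 288 to 525 CPM, and those of 10 intestinal epithelium markers, of which 2 were at 0 in all 30 libraries, were 66.7 to 133, 112 to 198 and 90.1 to 187 CPM. Summed levels of 8 lymphocyte markers were 11.3 to 24.0, 12.9 to 32.4 and 12.3 to 23.3 CPM and of 8 mammary epithelium markers 227 to 360, 198 to 354 and 231 to 311 CPM. Only 5 of the cholangiocyte, 3 of the intestinal, 1 of the lymphocyte and 2 of the mammary markers passed the filter on low counts. A few genes may thus carry these sums, which are not measures of cell content. The intestinal sum was at 1.17 to 6.42 CPM in the 10 libraries with little Alb. In bulk tissue, fewer cells of a type and less RNA per cell cannot be told apart.

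Receptors and regulators around the 8 genes were taken as a list of 20, all tested. None was called for the diet term, with a list median of 0.0014 beside 0.0026 over all genes. Nr1h4, which encodes FXR, had a diet difference of -0.016 and followed the cosine on the HFD with an amplitude of 0.26 ± 0.066 and a peak at ZT 15.4 (edgeR adjusted p = 0.0419). Fgfr4, the receptor through which intestinal FGF15 lowers Cyp7a1, did so with an amplitude of 0.27 ± 0.059 and a peak at ZT 19.1 (adjusted p = 0.0254), whereas its coreceptor Klb was not called (adjusted p = 0.257). Both calls held without ZT 12, with amplitudes of 0.31 for Nr1h4 (adjusted p = 0.0287) and 0.26 for Fgfr4 (adjusted p = 0.0322). Of the 18 fits without 1 HFD library each, 4 called Nr1h4 and 16 called Fgfr4, other than those without ZT 8 replicate 2 (adjusted p = 0.0639) and ZT 20 replicate 2 (0.0650). Diet differences were -0.17 for Fgfr4 and -0.13 for Klb.

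Zfp36l1, an RNA-binding protein that promotes decay of target mRNAs, Cyp7a1 mRNA among them, was the third regulator with a called cosine, of amplitude 0.72 ± 0.067 and peak at ZT 20.3 (adjusted p = 1.52e-05). On the HFD it was at 44.6, 45.2 and 44.9 CPM at ZT 8 and at 107, 107 and 127 CPM at ZT 20, without overlap, as for 10.1% of all genes in this direction. It changed over time on both diets (adjusted p = 0.0132 on AIN93G and 0.00156 on the HFD), and on AIN93G it fell by 1.39 on the log2 scale from ZT 4 to ZT 8 (adjusted p = 0.0175), from 106, 106 and 86.7 CPM to 42.5, 28.7 and 43.1 CPM. Without ZT 12 its amplitude was 0.71 (adjusted p = 6.19e-05), and its cosine was called in all 18 fits without 1 HFD library. Without AIN93G ZT 8 replicate 2 the time call on AIN93G (adjusted p = 0.106) and the step (0.140) were lost, and the step also without AIN93G ZT 4 replicate 2 (0.154). The fitted trough of Zfp36l1 was at ZT 8.28 and its diet difference over the 4 time points was -0.24 (adjusted p = 0.553). At ZT 4 it was at 63.5, 42.02 and 62.2 CPM on the HFD, under all 3 AIN93G libraries, as for 3.7% of all genes, with a log2 fold change of -0.82 ± 0.22 (unadjusted p = 0.000950, adjusted p = 1.00). At ZT 8 the log2 fold change was 0.25 ± 0.22 (adjusted p = 0.651).

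Nr5a2, the receptor LRH-1 that activates Cyp7a1 and Cyp8b1, changed over time on the HFD (adjusted p = 0.0194) without a called cosine (adjusted p = 0.164). It was at 89.4, 83.4 and 107 CPM at ZT 8 and at 37.4, 66.4 and 52.4 CPM at ZT 12, a fall by 0.86 on the log2 scale (adjusted p = 0.0159). The time test was also called without ZT 12 (adjusted p = 0.0282), and was lost only without HFD ZT 8 replicate 3 (adjusted p = 0.0551) of the 30 fits that left out 1 library each. The step was lost without that library (0.119) or HFD ZT 12 replicate 1 (0.127). On AIN93G the same time points gave 61.0, 51.7 and 78.6 CPM and 61.8, 71.0 and 66.4 CPM, and the diet difference at ZT 8 was not called (adjusted p = 0.253). Over the 4 time points the diet difference of Nr5a2 was 0.081.

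Of 20 other enzymes of bile acid synthesis 18 were tested, since Ch25h was under the filter and 1 name was not in the table. None was called for the diet term, with a list median of 0.080, and 3 had a called cosine on the HFD, namely Fdx1, the electron donor of mitochondrial P450 enzymes (peak at ZT 12.9, adjusted p = 0.0151), Akr1c6 (peak at ZT 7.76, adjusted p = 0.0252) and Cyp39a1, the 24-hydroxycholesterol 7-alpha-hydroxylase (peak at ZT 17.4, adjusted p = 0.0479). Without ZT 12 the call of Fdx1 was lost (adjusted p = 0.0614), and those of Akr1c6 (0.0394) and Cyp39a1 (0.0471) held. Of the 18 fits without 1 HFD library each, 18 called Fdx1, 16 Akr1c6, other than those without ZT 8 replicate 2 (adjusted p = 0.0536) and ZT 20 replicate 2 (0.0547), and 3 Cyp39a1. Hsd3b7, which follows the 7-alpha-hydroxylases, was at low levels with 0.309, 1.13 and 0.454 CPM at ZT 8 and 3.26, 5.78 and 2.36 CPM at ZT 0 on the HFD, without overlap, as for 11.1% of all genes in this direction. Its time test missed the threshold (adjusted p = 0.0810), and its diet difference was -0.100. Cyp2c70, which makes the muricholic acids of mice, had a diet difference of -0.22 and no called cosine (adjusted p = 0.0662).

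Of 16 genes listed as FXR targets apart from Nr0b2, 13 were tested, as Slc51a, Slc51b and Fgf15 were under the filter. Mafg was both in this list and among the regulators, and Cyp2b10 was among those tested. Whether each listed gene responds to FXR in these livers was not tested. None was called for the diet term, with a list median of -0.055 and 6 of the 13 above 0. The lowest p was that of Abcb4, 0.34 ± 0.089 higher on the log2 scale on the HFD (SE, edgeR adjusted p = 0.149). Without ZT 12 its difference was 0.39 (edgeR adjusted p = 0.0625). Transporters were the 3 with a called cosine on the HFD. Abcb11, the bile salt export pump, had an amplitude of 0.51 ± 0.12 and a peak at ZT 1.80 (adjusted p = 0.0426), Abcb4, which exports phospholipid into bile, a peak at ZT 2.17 (adjusted p = 0.0322), and Slc10a1, which takes bile acids up from blood, a peak at ZT 10.7 (adjusted p = 0.0426). Without ZT 12 the calls of Abcb4 (adjusted p = 0.0691) and Slc10a1 (0.0743) were lost, and that of Abcb11 held (0.00265). Of the 18 fits without 1 HFD library each, 3 called Abcb11, 10 Abcb4 and 4 Slc10a1. The time test on the HFD, not called for Abcb11 (adjusted p = 0.156), was called without ZT 12 (adjusted p = 0.00463). At ZT 12 Abcb11 was at 313, 419 and 1037 CPM on the HFD, and the highest was again replicate 3. Slc51b was at 1 to 34 counts in the 32 liver libraries, and Fgf15, made in the ileum, at 0 or 1 count.

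The share of cosine calls was 3 of 18 among other enzymes, 3 of 20 among regulators and 3 of 13 among FXR targets, beside 8.52% of all genes.

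For each of the 8, the 3 genes with the highest Pearson r of log2 CPM over the 32 liver libraries are given as a description, the libraries sharing diets and time points. For Cyp7a1 they were Pik3r1 (r = 0.81), Alas1 (0.79) and Ifrd1 (0.79). For Cyp8b1 they were Tor3a (0.83), Gm11843 (0.83) and Insig2 (0.79), and for Cyp27a1 Chchd2 (0.75), Cd302 (0.74) and Gpx4 (0.73). For Cyp7b1 they were Selenbp2 (0.83), Mup11 (0.78) and Hao1 (0.76), of which the first and second have near-identical copies that make their counts uncertain.

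For Akr1d1 the genes were Fggy (r = 0.88), Ces1b (0.84) and Tk1 (0.83), for Slc27a5 Hrg (0.83), Selenbp1 (0.81) and Mettl7a1 (0.79), and for Baat Acmsd (0.78), 9030616G12Rik (0.73) and 2810425M01Rik (0.72). Ces1b and Selenbp1 also have near-identical copies. For Nr0b2 they were Gpatch3 (0.67), Vps37b (0.66) and Tmem141 (0.66). Gpatch3 is a neighbour of Nr0b2 on the same strand, at chr4:133574745-133584243, and starts 18.2 kb after its end.

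Mice of the same group were used to ask whether genes varied together once diet and time were removed. Of 28 pairs of the 8 genes, 0 passed a permutation test within groups (100000 resamples, two-sided) after Benjamini-Hochberg adjustment over the pairs, with or without ZT 12, while 4 pairs had an unadjusted permutation p under 0.05 for Pearson r and 3 for Spearman rho. The pair with the lowest p was Slc27a5 and Akr1d1 (Pearson r = 0.62, permutation p = 0.00791, adjusted 0.221; Spearman rho = 0.59, permutation p = 0.0108, adjusted 0.302), with r = 0.54 without the 2 farthest libraries and 0.60 without ZT 12. Cyp7a1 and Cyp8b1 had r = -0.37 (permutation p = 0.189, adjusted 0.482) and rho = -0.25 (permutation p = 0.328, adjusted 0.835), with r = -0.18 without the 2 farthest libraries and -0.15 without ZT 12.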

How the data were processed

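The authors deposited 1 table of raw read counts per gene for 42 mice, without normalization, with gene lengths. The submitters' processing notes name fastp, STAR, HTSeq 0.6.1, DESeq, STAR-Fusion and mm10. Strand setting of the counting is not given in the sources used here. RNA was poly(A)-selected and sequenced by a company, 1 liver per library as far as the study's methods tell.

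Each diet and time point was taken from the sample records. Counts were fitted in R 4.3.3 with edgeR 4.0.16 (limma 3.58.1), quasi-likelihood F-test with TMM factors, in 1 fit of 10 groups of 3 liver libraries (Alb over 10000 CPM), for the 12000 genes whose counts averaged 25 or more, and called at a Benjamini-Hochberg adjusted p under 0.05. SE is the log2 fold change over the root of F. Cosine and sine terms of 24 h were tested in the 18 HFD libraries by edgeR, with amplitude (SE) and peak from a linear model of log2 CPM with a prior count of 2. CPM per kb divides CPM by the deposited gene length.

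Alternatives were DESeq2 1.42.0, scaling by library size, no filter on low counts, a filter over all 42 libraries, separate fits, fits without ZT 12, with ZT 24 or with all libraries, and omission of single libraries. For ZT 12, fits without it of the interaction, of time on AIN93G and of diet at each time point, and fits of list genes without it or a single library, were added after values were seen. All tests were tested on simulated data.

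The members and lists were chosen with earlier results of these data known. Named genes are the 8, list genes called for diet, up to 2 per list with the largest range among those called for time on the HFD, a few fixed ones (Nr1h4, Nr5a2, Fgfr4, Klb, Abcb11, Slc51b, Hsd3b7, Cyp2c70), the 3 most like genes of each member, and check genes. Fdx1, Akr1c6, Cyp39a1, Abcb4 and Slc10a1 were named after their values were seen. Library totals were 14592481 to 21368409 counts, so 3 counts are the floor below which no fold is given.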

Additional observations from a re-analysis of the deposited data

Results flagged for a closer look

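Libraries outside the comparisons held signal of some of the genes. In the 10 libraries with little Alb, Cyp27a1 had a median of 34.6 CPM, against 385 CPM in liver libraries, with 441 to 941 counts per library. Cyp8b1 had a median of 0.475 CPM (4 to 12 counts) and Cyp7b1 of 0.859 CPM (6 to 27 counts), each above the floor of 3 counts in all 10. Cyp7a1, at 0 or 1 count, and Nr0b2, at 0 counts, were at or under the floor in all 10, as were Baat in 8, Akr1d1 in 9 and Slc27a5 in 6. Arntl was at 0.779 CPM in the liver library of AIN93G ZT 24 and at 1.15 CPM in that of HFD ZT 24, against 38.8 to 45.7 CPM at ZT 0. No group had 4 or more libraries, so Dixon's test for a single outlying library was run on none.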

How the results depend on the processing

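Each of the 8 genes had 133 counts or more in each of the 30 libraries, and the effect of depth on the calls was not tested. No paired analysis was possible because no 2 of the 10 groups shared more than 1 first number of their sample titles, 0 of these numbers occurred on both diets, and the second number repeated within 9 of the 10 groups. Scaling by library size and a filter over all 42 libraries changed no call of the 8; the former gave 22 genes for the diet term.

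DESeq2 called 83 genes for the diet term, 13 at ZT 0, 30 at ZT 8 (with 1 of the 8, Nr0b2), 3 at ZT 12, 5 for the interaction, 275 for time on AIN93G, 1786 for time on the HFD and 1672 for the cosine, and Nr0b2 as the only 1 of the 8 at HFD ZT 8 against ZT 4 (52 genes) and ZT 12 against ZT 8 (812 genes). Without the filter on low counts there were 232 genes and 2 of the 8 (Cyp7b1 and Nr0b2) for the diet term, 51 at ZT 0, 19 at ZT 4 (with Cyp7b1, 1 of the 8), 183 at ZT 8 (with Nr0b2), 78 at ZT 12, 93 for the interaction (with Nr0b2), 872 for time on AIN93G (with 2 of the 8, Cyp7a1 and Cyp8b1) and 1738 for time on the HFD (with 3, Cyp7a1, Cyp8b1 and Nr0b2), and 1 of the 8 was called at AIN93G ZT 8 against ZT 4 (Cyp7a1, of 366 genes), HFD ZT 8 against ZT 4 (Nr0b2, of 201) and HFD ZT 12 against ZT 8 (Nr0b2, of 622). The cause was not tested. Separate fits of each time point gave 9 genes at ZT 0 and 0 at ZT 8 (edgeR).

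Without ZT 12 there were 64 genes for the diet term, 1 at ZT 0, 4 at ZT 8, 433 for time on AIN93G, 1038 for time on the HFD with 1 of the 8 (Nr0b2), and 1020 genes with a called cosine, 1 of the 8 among them (Cyp7a1; Cyp8b1 amplitude 0.55). With the liver libraries of ZT 24 the diet term held 4 genes, its sign turned for Slc27a5 (-0.030), Akr1d1 (-0.080) and Nr5a2 (-0.042), and the cosine held 366 genes and 0 of the 8, with amplitudes of 0.95 for Cyp7a1 and 0.48 for Cyp8b1. All 42 libraries as 14 groups gave 1 gene for the diet term, 0 at ZT 8, 2 for time on AIN93G and 76 for time on the HFD. The cause was not tested.

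Leaving out 1 library gave 5 to 188 genes for the diet term (most without AIN93G ZT 12 replicate 1), 0 to 37 at ZT 8, 0 to 97 at ZT 12, 0 to 2 for the interaction, 12 to 280 for time on AIN93G, 309 to 1173 for time on the HFD (with 0 to 1 of the 8), 676 to 1705 for the cosine (with 0 to 2 of the 8) and 0 to 1 of the 8 at HFD ZT 12 against ZT 8. Amplitudes were 1.05 to 1.42 for Cyp7a1 and 0.51 to 0.70 for Cyp8b1. Diet differences spanned 0 for Cyp7a1 (-0.14 to 0.46), Baat (-0.043 to 0.048), Akr1d1 (-0.044 to 0.086), Nr1h4 (-0.055 to 0.022) and Hsd3b7 (-0.29 to 0.065).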
